A study of Mus musculus with 9 samples.

Results

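The 35 genes described here encode the enzymes and transporters of glycolysis and the products of genes known to be induced when oxygen is low. They were taken by symbol from the 32286 rows of the feature table, and all 35 were found. The rule uses symbols and no measured value, but the list was drawn up with earlier results of these data known. Their transcripts were counted in single cells, captured in droplets and read from the 5′ end, from suspensions of 9 primary tumours, 3 per group, which the study's methods describe as cleared of dead cells and debris on a density gradient. The tumours had grown in the mammary fat pads of female BALB/c mice after injection of the mouse mammary tumour line 168FARN. In the WT group the injected cells were not edited. In the Kmt2c KO and Kmt2d KO groups, the histone methyltransferase gene Kmt2c or its paralogue Kmt2d had been cut in exon 1 by transient transfection of Cas9 with a pool of guides. The knockout lines were sorted pools rather than clones, so the 3 tumours of a group share a cell line, and only the injected cells carry the edits. The deposited files mark each library only with a letter, C, D or X. C was taken to mean Kmt2c KO, D to mean Kmt2d KO and X to mean WT, because the study's tables of comparisons use these letters in their titles, and every group value rests on that reading. All groups carried an H2B–mCherry reporter, whose transcript is listed as H2BMc. The study's methods give the age of the mice when they were bought, but not at injection or collection. The comparisons ask how far the loss of either enzyme goes with the level of these genes in tumour cells, and in the host cells of the same tumours.

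Glycolysis splits glucose into pyruvate, which can enter the mitochondria or be reduced to lactate and exported. In low oxygen the prolyl hydroxylases no longer mark the subunit HIF-1α for destruction, and HIF-1 then binds a short core motif in the promoters of glucose transporters, glycolytic enzymes and genes for mitophagy, pH control and collagen modification. Hif1a itself is regulated mostly at the level of protein, and solid tumours commonly hold hypoxic zones away from vessels.

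Tumour cells were taken as kept cells with at least 1 H2BMc UMI (unique molecular identifier, a count of captured transcripts). They also had fewer than 2 markers of each of the macrophage, lymphocyte, endothelial and mural classes, whereas fibroblast markers excluded no cell. This gave 16572 tumour cells, 357 to 3415 per library. Their median depth was 8659 to 24081 UMIs and was highest in WT libraries 1 and 3. Levels are given as CPM, the count of a gene scaled to a fixed total of the UMIs summed over the tumour cells of a library. Of the tumour markers, Krt8 was seen in 74.1% to 95.5% of these cells, with WT libraries highest, whereas Krt18 and Krt19 were near 0, at 0.135 and 0.0305 CPM over all tumour cells. H2BMc, which selected the cells, was itself higher in Kmt2c KO cells than in WT (log2 fold change 0.73 ± 0.15 SE, adjusted p = 0.0102). The targeted genes were not lower in their own knockouts. Kmt2c stood at 43.8, 42.2 and 57.7 CPM in Kmt2c KO and 47.8, 48.97 and 48.3 CPM in WT libraries 1, 2 and 3, and Kmt2d stood at 25.9, 31.8 and 24.3 CPM in Kmt2d KO against 21.4, 19.1 and 14.8 in WT. By edgeR, Kmt2d was called higher in Kmt2c KO than in WT (log2 fold change 0.51 ± 0.15 SE, adjusted p = 0.0393). UMI counts of a gene do not read small edits in an exon, so these levels check neither the labels nor the reading of the letters. For the edited lines themselves, the study reported mutant reads at the targeted regions and reduced protein on immunoblots. A barcode sequence was shared between libraries in 4365 of 84658 cases, 182 of them among tumour cells.

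In Kmt2c KO tumour cells the glycolysis and hypoxia genes stood above their WT level almost throughout. Of the 34 members that could be tested, 24 were called higher and 0 lower by edgeR's quasi-likelihood test at an adjusted p below 0.05. Over all 14015 genes tested, 9.64% were called higher and 9.43% lower, and their median log2 fold change was near 0, against 0.78 for the members. The called rises ran from 1.29-fold (Gpi1) to 5.46-fold (Car9), and 12 members rose at least 2-fold. For all 24 called members the 3 Kmt2c KO libraries lay above the 3 WT libraries with no overlap, which held for 28 of the 34 members in all, beside 20.8% of all genes. The count depended on single libraries. It fell to 14 without WT library 1, to 15 without WT library 3 and to 16 without Kmt2c KO library 2. With each cell thinned to 3000 UMIs it was 17. Cells within the gene limits that were lost to the limit on mitochondrial UMIs made up 7.78% to 9.96% of all barcodes in Kmt2c KO libraries. They made up 13.3% to 17.6% in Kmt2d KO and 11.6% to 33.8% in WT libraries. In WT library 3, 2184 cells lay within the gene limits and 939 of them were kept. Without the mitochondrial limit the count of called members was 24. Of the 24 members, 12 were called under every alternative run, namely Slc2a1, Hk1, Pfkl, Pgk1, Eno1, Egln1, P4ha1, Bnip3, Ndrg1, Car9, Mif and Higd1a.

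**Figure D1:**
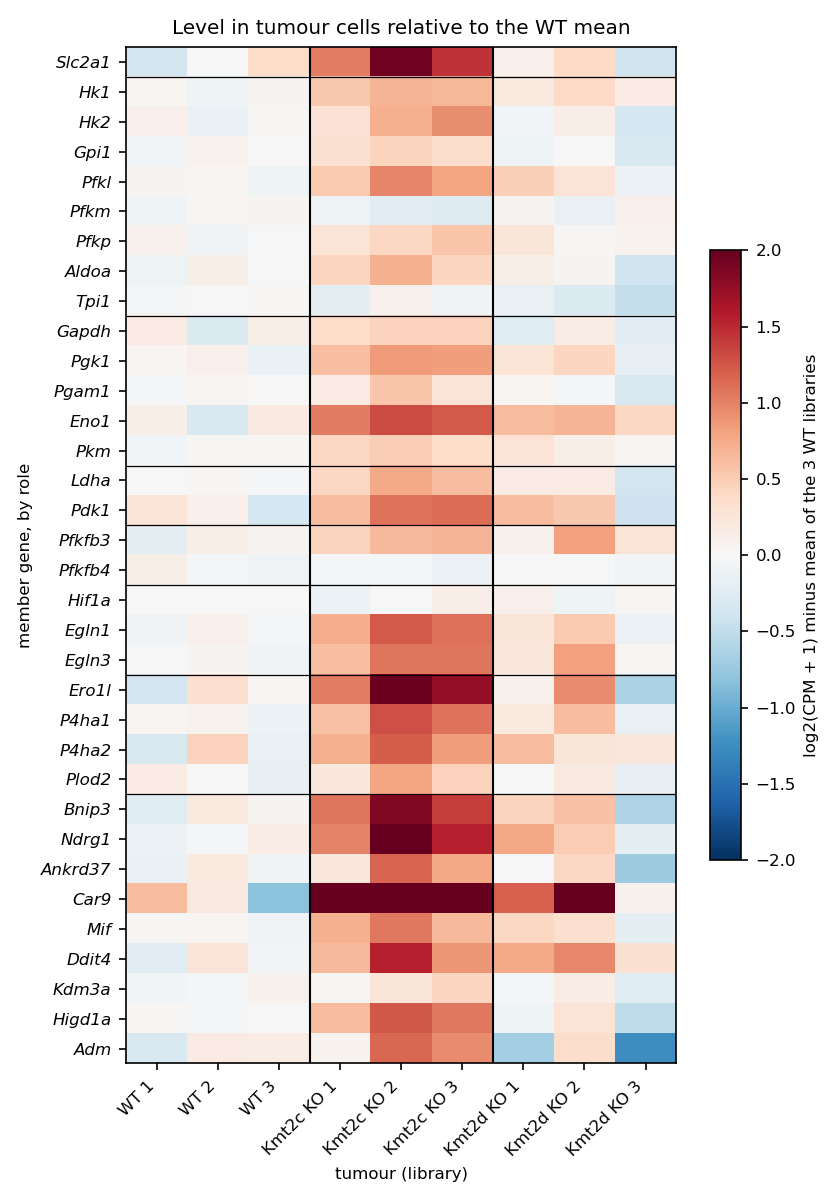
Level of each member in the summed tumour cells of each library, as log2(CPM + 1) minus the mean of the 3 WT libraries, with members in rows ordered by role and the 9 libraries in columns. Colours are clipped at 2, Slc16a3 is left out because it had 32 UMIs in all tumour cells, and the 3 Kmt2c KO columns are red for most genes while Kmt2d KO library 3 is mostly blue or white.

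The transcript of the glucose transporter gene was among those with the largest differences. Slc2a1, the facilitative glucose transporter GLUT1, stood at 149, 283 and 199 CPM in Kmt2c KO libraries 1, 2 and 3, at 78.00, 95.4 and 54.9 CPM in Kmt2d KO and at 55.8, 72.5 and 93.6 CPM in WT. The lowest Kmt2c KO library lay above the highest of the other groups, whereas Kmt2d KO and WT overlapped. Slc2a1 rose in Kmt2c KO (log2 fold change 1.51 ± 0.28 SE, adjusted p = 0.00600), and gave 0.00 ± 0.28, adjusted p = 0.996 in Kmt2d KO.

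In the upper steps of the pathway, from hexokinase to triose phosphate, 6 of 8 members rose in Kmt2c KO cells, beside 9.64% of all genes. Of these, Hk2, Gpi1 and Aldoa lost their calls in 8, 6 and 6 of 20 alternatives. None of these 3 was called without WT library 1, 2 or 3 or without Kmt2c KO library 2. Hk1, the hexokinase of most tissues, was measured at 106, 118 and 116 CPM in Kmt2c KO, 83.7, 96.3 and 81.7 in Kmt2d KO and 74.98, 68.4 and 75.7 in WT libraries, and rose (log2 fold change 0.63 ± 0.09 SE, adjusted p = 0.00200). The inducible hexokinase Hk2 was scarcer, with 13.8, 18.8 and 22.2 CPM in Kmt2c KO, 10.6, 12.2 and 8.54 in Kmt2d KO and 11.98, 10.1 and 11.4 in WT (log2 fold change 0.71 ± 0.18 SE, adjusted p = 0.0216). All libraries of Kmt2c KO were above WT for both hexokinases, by little for library 1 in the case of Hk2. Gpi1, which isomerises glucose 6-phosphate, stood at 491, 547 and 509 CPM in Kmt2c KO and 384, 417 and 397 in WT (log2 fold change 0.37 ± 0.10 SE, adjusted p = 0.0306).

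The 3 phosphofructokinase genes, whose product catalyses the committed step, differed in their values. Pfkl, the liver-type subunit, was at 103, 140.4 and 123 CPM in Kmt2c KO, 98.6, 85.9 and 65.6 in Kmt2d KO and 73.5, 73.2 and 66.5 in WT (log2 fold change 0.78 ± 0.16 SE, adjusted p = 0.00877). Pfkp, the platelet type, was at 30.5, 33.8 and 37.3 CPM in Kmt2c KO and 26.6, 23.9 and 24.8 in WT (log2 fold change 0.43 ± 0.10 SE, adjusted p = 0.0150). Pfkm, the muscle type, was not called, with 22.03, 20.1 and 19.7 CPM in Kmt2c KO and 22.2, 24.3 and 24.5 in WT (log2 fold change −0.20 ± 0.11 SE, adjusted p = 0.209). It is the only member whose Kmt2c KO libraries all lay below the WT libraries. Aldoa, the main aldolase, stood at 1609, 1950.0 and 1611 CPM in Kmt2c KO, 1290.5, 1242 and 911 in Kmt2d KO and 1116, 1292 and 1186 in WT (log2 fold change 0.52 ± 0.15 SE, adjusted p = 0.0319). Triose phosphate isomerase, Tpi1, overlapped between Kmt2c KO and WT at 756, 906 and 815 and 841, 863 and 867 CPM (log2 fold change −0.06 ± 0.11 SE, adjusted p = 0.763).

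Of the 5 enzymes of the lower, energy-yielding steps, 3 rose in Kmt2c KO, beside 9.64% of all genes. Eno1, the main enolase, had the smallest adjusted p of all members. It stood at 288, 346 and 329.7 CPM in Kmt2c KO, 216, 225 and 187 in Kmt2d KO and 152, 114 and 159 in WT, so that the 3 groups did not overlap and Kmt2d KO lay between the others (log2 fold change 1.18 ± 0.14 SE, adjusted p = 0.000629). Pgk1, a kinase of the lower pathway that yields ATP, was at 714, 845 and 838 CPM in Kmt2c KO, 567, 631 and 419.8 in Kmt2d KO and 481, 503 and 430.2 in WT (log2 fold change 0.76 ± 0.14 SE, adjusted p = 0.00621). Pkm, the pyruvate kinase outside liver and red cells, was among the most abundant members, at 2120.3, 2244 and 2052 CPM in Kmt2c KO, 1933, 1724 and 1615 in Kmt2d KO and 1526, 1624 and 1626 in WT (log2 fold change 0.42 ± 0.10 SE, adjusted p = 0.0158). Gapdh and Pgam1 were not called, although their Kmt2c KO libraries also lay above WT. Gapdh stood at 844, 899 and 896 CPM in Kmt2c KO, 549.8, 724 and 564 in Kmt2d KO and 729, 537 and 711 in WT (log2 fold change 0.41 ± 0.13 SE, adjusted p = 0.0520), and was called in 9 of 20 alternatives. Pgam1, the mutase before enolase, stood at 764, 997 and 817 CPM in Kmt2c KO, 703, 663 and 542 in Kmt2d KO and 661, 701 and 679.7 in WT (log2 fold change 0.34 ± 0.13 SE, adjusted p = 0.103). Several of these genes (Gapdh, Eno1, Pgk1, Ldha, Pgam1, Tpi1, Aldoa, Pkm and Mif) have near-identical copies in the genome, among them Eno1b for Eno1, so that their levels depend on how shared reads were assigned.

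At the branch from pyruvate to lactate, Ldha and Pdk1 rose and Slc16a3 could not be tested. Ldha, the lactate dehydrogenase subunit of glycolytic tissue, stood at 1201, 1526 and 1379 CPM in Kmt2c KO, 1012, 1014 and 701 in Kmt2d KO and 905, 911 and 887 in WT (log2 fold change 0.60 ± 0.15 SE, adjusted p = 0.0182). Pdk1, the kinase that closes pyruvate dehydrogenase, was low, at 9.66, 13.7 and 14.00 CPM in Kmt2c KO, 9.62, 9.02 and 4.204 in Kmt2d KO and 7.25, 6.400 and 4.45 in WT (log2 fold change 1.04 ± 0.31 SE, adjusted p = 0.0387). Kmt2c KO library 1 was close to Kmt2d KO libraries 1 and 2, and Pdk1 lost its call in 9 of 20 alternatives. Ldha lost its call in 4 of 20. Neither gene was called without WT library 1, 2 or 3 or without Kmt2c KO library 2. Slc16a3, the lactate exporter MCT4, was counted at 7, 5 and 4 UMIs per Kmt2c KO library, 2, 3 and 6 per Kmt2d KO library and 2, 3 and 0 per WT library. At 32 UMIs among 16572 cells its transcript was close to absent from tumour cells of every group. Its relative Slc16a1 (MCT1), which is no member, had 103 to 584 UMIs per library. The flux regulators Pfkfb3 and Pfkfb4, which set fructose 2,6-bisphosphate, were not called (log2 fold change 1.45 ± 0.51 SE, adjusted p = 0.0707, and log2 fold change −0.08 ± 0.13 SE, adjusted p = 0.716). Pfkfb3 was seen in few cells, with 194 UMIs in all tumour cells.

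Among the genes of oxygen sensing, the member hydroxylases Egln1 and Egln3 rose and Hif1a was not called. Hif1a, the oxygen-labile subunit of HIF-1, stood at 87.4, 94.8 and 104 CPM in Kmt2c KO, 102, 89.4 and 98.03 in Kmt2d KO and 94.9, 95.7 and 94.3 in WT. The groups overlapped fully, and the log2 fold change in Kmt2c KO was 0.00 with an interval of −0.17 to 0.17 at 2 SE. Egln1 (PHD2), the main hydroxylase acting on HIF, was at 102, 146 and 133 CPM in Kmt2c KO, 72.8, 89.00 and 56.9 in Kmt2d KO and 58.6, 66.2 and 59.8 in WT (log2 fold change 1.04 ± 0.17 SE, adjusted p = 0.00345). Egln3 (PHD3), itself a known HIF target, was at 23.98, 33.5 and 33.5 CPM, 18.3, 28.3 and 16.02 CPM and 15.6, 16.1 and 14.8 CPM in the same order (log2 fold change 0.96 ± 0.21 SE, adjusted p = 0.0107). For both hydroxylases each Kmt2c KO library exceeded each WT library. The other HIF hydroxylases, Egln2 and Hif1an, are no members and were not called (−0.15 ± 0.11, adjusted p = 0.370 and 0.28 ± 0.11, adjusted p = 0.101).

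All 4 members for disulfide formation and collagen modification rose, beside 9.64% of all genes called higher. Ero1l, the oxidase of the endoplasmic reticulum that RefSeq names Ero1a, stood at 94.5, 183 and 158 CPM in Kmt2c KO, 48.8, 90.1 and 29.3 in Kmt2d KO and 35.4, 58.3 and 47.3 in WT (log2 fold change 1.62 ± 0.38 SE, adjusted p = 0.0150). Library 2 was the highest and library 3 the lowest of the Kmt2d KO group, and library 3 lay below all WT libraries. P4ha1, a collagen prolyl hydroxylase subunit, was at 86.7, 142 and 123 CPM in Kmt2c KO, 66.1, 88.6 and 51.9 in Kmt2d KO and 58.9, 60.3 and 52.96 in WT (log2 fold change 1.03 ± 0.21 SE, adjusted p = 0.00852). Its sister subunit P4ha2 was scarce, at 6.62, 9.71 and 7.34 CPM in Kmt2c KO and 2.72, 5.43 and 3.21 in WT (log2 fold change 1.02 ± 0.27 SE, adjusted p = 0.0250). Plod2, a collagen lysyl hydroxylase, was at 90.2, 134 and 107 CPM in Kmt2c KO and 86.8, 77.8 and 68.7 in WT (log2 fold change 0.51 ± 0.16 SE, adjusted p = 0.0432), and lost its call in 9 of 20 alternatives. Ero1l and P4ha2 lost theirs in 3 and 5 of 20. Without Kmt2c KO library 2, WT library 1 or WT library 3, P4ha1 alone of the 4 kept its call.

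Of the 9 other hypoxia-induced genes, 6 rose, beside 9.64% of all genes. Car9, the carbonic anhydrase that acidifies the surroundings of hypoxic cells, showed the largest fold among members. It stood at 36.1, 51.6 and 53.6 CPM in Kmt2c KO, 19.3, 34.9 and 8.35 in Kmt2d KO and 12.7, 9.04 and 4.03 in WT (log2 fold change 2.45 ± 0.48 SE, adjusted p = 0.00779). Kmt2d KO library 2 came near the lowest Kmt2c KO library, and library 3 lay within the WT range. Bnip3, a mitophagy receptor, was at 225, 385 and 279 CPM in Kmt2c KO, 145, 160.1 and 68.9 in Kmt2d KO and 89.5, 121 and 110.3 in WT (log2 fold change 1.47 ± 0.30 SE, adjusted p = 0.00862). Ndrg1, a stress-induced gene named for its regulation by N-myc, was at 174, 348 and 256 CPM in Kmt2c KO, 149, 124 and 76.1 in Kmt2d KO and 79.4, 84.8 and 96.1 in WT (log2 fold change 1.58 ± 0.28 SE, adjusted p = 0.00478). In these 3 genes library 1 was the lowest of the Kmt2c KO tumours.

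Higd1a, a mitochondrial protein of the respiratory chain, stood at 218, 335 and 292 CPM in Kmt2c KO, 132, 171 and 98.8 in Kmt2d KO and 143, 136 and 142 in WT (log2 fold change 1.00 ± 0.20 SE, adjusted p = 0.00727). Ddit4 (REDD1), an inhibitor of mTORC1, was at 146, 276 and 172 CPM in Kmt2c KO, 159, 183 and 115 in Kmt2d KO and 80.7, 112 and 89.6 in WT (log2 fold change 1.08 ± 0.25 SE, adjusted p = 0.0155). For Ddit4 the Kmt2d KO libraries also lay above all WT libraries, without passing the test (0.66 ± 0.25, adjusted p = 0.211). Mif, a secreted cytokine, was at 2284, 2918 and 2192 CPM in Kmt2c KO, 1868, 1737 and 1227 in Kmt2d KO and 1426, 1442 and 1327 in WT (log2 fold change 0.82 ± 0.17 SE, adjusted p = 0.00899). Ankrd37 was at 17.6, 34.4 and 26.02 CPM in Kmt2c KO, 14.97, 20.04 and 8.68 in Kmt2d KO and 13.5, 17.1 and 14.2 in WT and was not called (log2 fold change 0.79 ± 0.31 SE, adjusted p = 0.0966), with Kmt2c KO library 1 just above the highest WT library. Adm, which encodes the vasodilator adrenomedullin, and Kdm3a, a histone demethylase, were not called either (0.78 ± 0.38, adjusted p = 0.178 and 0.25 ± 0.12, adjusted p = 0.192).

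Promoters of 4 members with high ratios between cells are shown, because these genes varied together and HIF-1 is known to act through such motifs. They are the first 4 members, in the order of the ratio between cells given later, with an entry in RefSeq (GRCm38.p6, the assembly of the mm10 build that the submitters name): Bnip3, Ankrd37, Pgk1 and Slc2a1. Ndrg1 and Plod2 were not matched. Members with fewer than 3 UMIs in the lowest quartile of cells of any library, Car9 and Ero1l among them, were not ranked. Each sequence is the 250 bases before the annotated start, 5′ to 3′ on the gene's strand, and capitals mark ACGTG and GCGTG on either strand, where overlapping matches run together and the palindrome CACGTG counts once per strand. Bnip3 is from chr7:138909507-138909756 on the minus strand, Ankrd37 from chr8:45999851-46000100 on the minus strand, Pgk1 from chrX:106186850-106187099 on the plus strand and Slc2a1 from chr4:119108495-119108744 on the plus strand.
Bnip3: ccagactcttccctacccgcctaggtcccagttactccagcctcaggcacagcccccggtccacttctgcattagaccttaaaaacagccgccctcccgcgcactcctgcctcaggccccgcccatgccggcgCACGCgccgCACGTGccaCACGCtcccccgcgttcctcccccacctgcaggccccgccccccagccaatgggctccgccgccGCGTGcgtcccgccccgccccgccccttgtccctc
Ankrd37: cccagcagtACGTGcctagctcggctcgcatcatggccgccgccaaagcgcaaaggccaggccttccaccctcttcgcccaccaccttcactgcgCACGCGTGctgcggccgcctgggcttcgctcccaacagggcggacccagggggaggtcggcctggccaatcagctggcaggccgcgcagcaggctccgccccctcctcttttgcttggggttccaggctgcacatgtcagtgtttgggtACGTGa
Pgk1: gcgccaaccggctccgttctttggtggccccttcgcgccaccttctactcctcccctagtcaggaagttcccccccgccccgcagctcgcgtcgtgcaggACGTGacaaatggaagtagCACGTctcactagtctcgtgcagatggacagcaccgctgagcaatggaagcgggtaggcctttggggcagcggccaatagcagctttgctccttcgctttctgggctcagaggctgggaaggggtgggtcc
Slc2a1: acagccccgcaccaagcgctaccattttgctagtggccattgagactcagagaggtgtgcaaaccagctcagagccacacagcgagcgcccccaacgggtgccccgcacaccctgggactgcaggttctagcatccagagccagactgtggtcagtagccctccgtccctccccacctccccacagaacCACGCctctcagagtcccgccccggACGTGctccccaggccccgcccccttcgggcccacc
ACGTG occurred 2 times in Bnip3, 2 in Ankrd37, 2 in Pgk1 and 1 in Slc2a1, and GCGTG 3, 2, 0 and 1 times. Over the 33 members matched, 20 held ACGTG in at least 1 annotated window (60.6%) and 30 held either motif (90.9%), beside 18.4% and 41.5% of 26992 other genes. Members had several windows more often than other genes, 9 of 33 beside 15.4%, and both motifs contain the dinucleotide CG. Gpi1, Tpi1 and Mif held neither motif in these 250 bases. The members were picked as glycolysis and known hypoxia-induced genes. The shares therefore describe that choice and are no test of HIF-1 in these tumours. A match is a description of letters, not a binding site.

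In Kmt2d KO tumour cells no member was called against WT, where the WT libraries are the same as those of the first comparison. The count was 0 of 34, beside 2.33% of all genes called in either direction (1.06% higher and 1.27% lower). At an unadjusted p below 0.05 there were 5 of 34 members and 2406 of 14015 genes, which is no larger a share of the members than of all genes. DESeq2 and the fit without a filter on low counts each called 1, Eno1. The median log2 fold change of the members was 0.10, with 19 above 0 and 15 below. All Kmt2d KO libraries lay above all WT libraries for Hk1, Eno1 and Ddit4, beside 13.4% of all genes, and below them for Tpi1, beside 10.3%. Eno1 came nearest (log2 fold change 0.54 ± 0.14 SE, adjusted p = 0.0730), followed by Tpi1 (−0.32 ± 0.11, adjusted p = 0.173), Ddit4, Car9 (1.23 ± 0.48, adjusted p = 0.222) and Hk1 (0.23 ± 0.09, adjusted p = 0.241). The 3 Kmt2d KO libraries differed from each other. For 29 of the 34 tested members library 3 was the lowest of the group, beside 23.1% of all genes, and for 20, Bnip3 and Slc2a1 among them, it lay below all WT libraries, beside 24% of all genes.

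Set against each other directly, the knockouts gave no call. Kmt2d KO cells had lower levels than Kmt2c KO cells in 32 of 34 members (median log2 fold change −0.61), and for 23 of the 34 all Kmt2d KO libraries lay below all Kmt2c KO libraries, beside 7.4% of all genes, with 10.7% of all genes above. None passed the adjusted threshold, where 0 of 14015 genes did. At an unadjusted p below 0.05 there were 29 members and 2510 genes. Higd1a and Slc2a1 had the lowest adjusted p (−1.11 ± 0.19, adjusted p = 0.0717 and −1.50 ± 0.28, adjusted p = 0.0717, as log2 fold change ± SE). The count depended on the libraries, the filter, the choice of cells and the tool. Without Kmt2d KO library 2, 26 members and 2808 genes were called. Without Kmt2c KO library 1 there were 5 members and 88 genes. With all 9 libraries, edgeR called 22 members and 613 genes without the filter on low counts, 12 members and 192 genes in cells with at least 2 H2BMc UMIs, and 4 members and 44 genes in thinned cells. DESeq2 called 18 members among 584 genes.

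**Figure D2:**
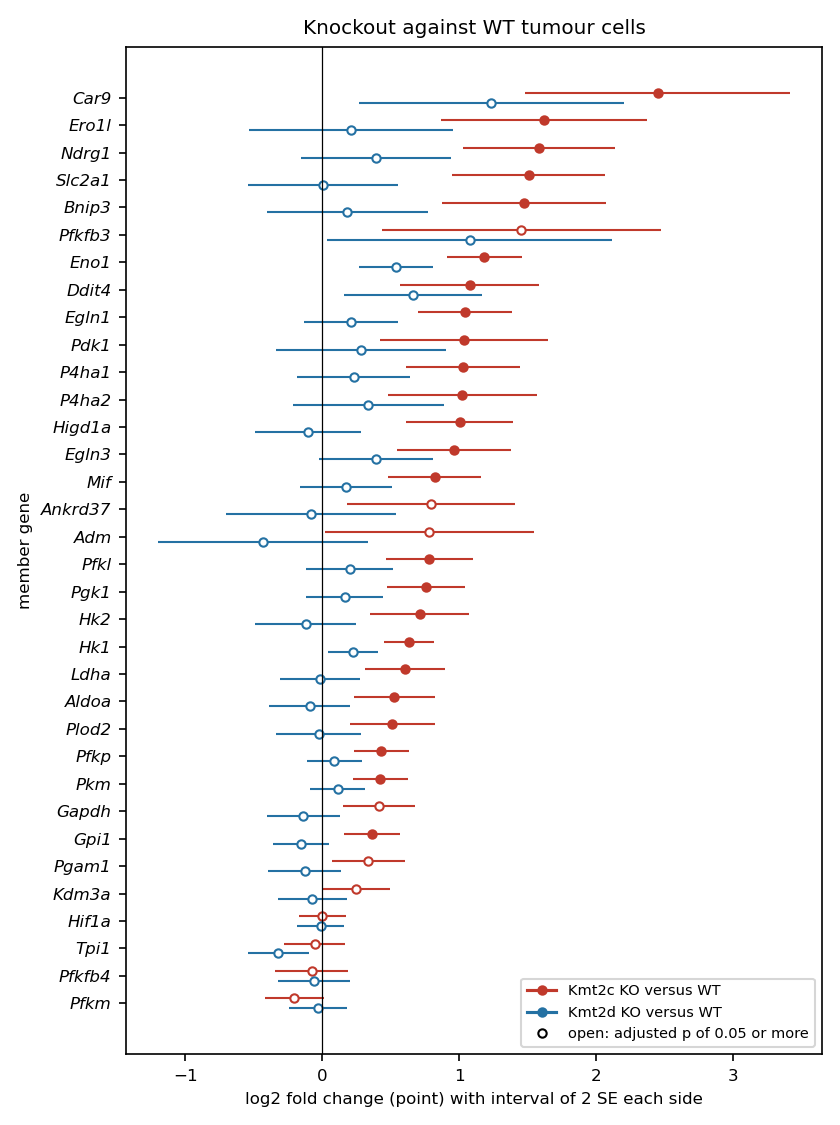
Log2 fold change of each tested member in Kmt2c KO (red) and Kmt2d KO (blue) tumour cells against the shared WT libraries, as a point with a line of 2 SE to each side, where filled points passed an adjusted p of 0.05. The red points run from −0.20 (Pfkm) to 2.45 (Car9) with 24 filled, and all 34 blue points are open.

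As a mean over the 35 members, log2(CPM + 1) was 6.06, 6.14 and 6.06 in WT, 6.58, 7.01 and 6.86 in Kmt2c KO and 6.29, 6.44 and 5.90 in Kmt2d KO libraries 1, 2 and 3. All Kmt2c KO tumours stood above all others, and Kmt2d KO library 3 below all others. The mean differed by 0.73 between Kmt2c KO and WT, and by 0.79 without the 9 genes that have near-identical copies. Summed, the members made up 0.934, 0.963 and 0.946 percent of tumour cell UMIs in WT, 1.29, 1.61 and 1.39 percent in Kmt2c KO and 1.07, 1.07 and 0.813 percent in Kmt2d KO libraries. With tumour cells taken by Krt8 in place of H2BMc the difference of the means was 0.46, with 16 members called.

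A list of 50 further genes of the same pathways (other isoforms, pyruvate and lactate enzymes, HIF subunits and further targets) was described in the same way. In Kmt2c KO 10 of the 41 tested rose and 3 fell, beside 9.64% and 9.43% of all genes, with a median log2 fold change of 0.15. In Kmt2d KO 0 rose and 2 fell, beside 1.06% and 1.27%. The rises in Kmt2c KO included the angiogenic factor Vegfa (0.98 ± 0.29, adjusted p = 0.0395), the glycoprotein hormone Stc2 (1.80 ± 0.47, adjusted p = 0.0240), the aldolase isoform Aldoc (2.33 ± 0.64, adjusted p = 0.0285), phosphoglucomutase Pgm1 (0.82 ± 0.13, adjusted p = 0.00280), the mitochondrial hypoxia gene Fam162a (0.80 ± 0.20, adjusted p = 0.0202) and Eno1b (0.80 ± 0.11, adjusted p = 0.00123). Of these, Aldoc and Stc2 were scarce, at 0.101 to 0.414 and 0.209 to 0.828 CPM in WT libraries. In Kmt2c KO libraries they ran from 0.975 to 1.18 and from 1.62 to 2.09 CPM. Aldoc was also higher in Kmt2d KO than in WT, without passing the test (2.45 ± 0.63, adjusted p = 0.0780). Kdm4b, Insig2, Mxi1 and Pdk3 rose by 0.55, 0.46, 0.41 and 0.33 on the log2 scale in Kmt2c KO. Ldhb, the other lactate dehydrogenase subunit, fell in both knockouts. Its UMIs numbered 13, 28 and 35 per WT library, 0, 0 and 1 per Kmt2c KO library and 2, 0 and 5 per Kmt2d KO library, although the knockout libraries held more tumour cell UMIs. Hif3a, which encodes an inhibitory HIF subunit, was counted 8, 12 and 4 times in WT, 0, 1 and 0 in Kmt2c KO and 1, 5 and 3 in Kmt2d KO libraries, and was called lower in both. The pyruvate dehydrogenase subunit Pdhb fell by 0.24 on the log2 scale in Kmt2c KO.

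Over single cells the gap between Kmt2c KO and WT was widest in the upper part of the distribution. Each tumour cell was thinned to 3000 UMIs. Shallower cells were left out, 13.6% of the tumour cells in Kmt2d KO library 3 and 1.08% to 5.68% in the other libraries. The members' share of a cell's UMIs at the 10th percentile was 0.333, 0.370 and 0.367 percent in WT, 0.467, 0.467 and 0.367 in Kmt2c KO and 0.400, 0.400 and 0.333 in Kmt2d KO libraries. At the median it was 0.700, 0.733 and 0.733 percent in WT, 0.933, 1.07 and 0.833 in Kmt2c KO and 0.733, 0.733 and 0.633 in Kmt2d KO. At the 90th percentile it was 1.47, 1.63 and 1.63 percent in WT, 2.63, 3.47 and 2.87 in Kmt2c KO and 2.100, 1.97 and 1.17 in Kmt2d KO. At the low end Kmt2c KO library 3 lay within the WT range and libraries 1 and 2 above it. At the median and the high end all 3 lay above WT. The 90th percentile was 4.42, 4.41 and 4.45 times the 10th in WT libraries, 5.64, 7.43 and 7.82 times in Kmt2c KO and 5.25, 4.92 and 3.500 times in Kmt2d KO, so library 3 of Kmt2d KO had the narrowest spread and Kmt2d KO libraries 1 and 2 exceeded WT.

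**Figure D3:**
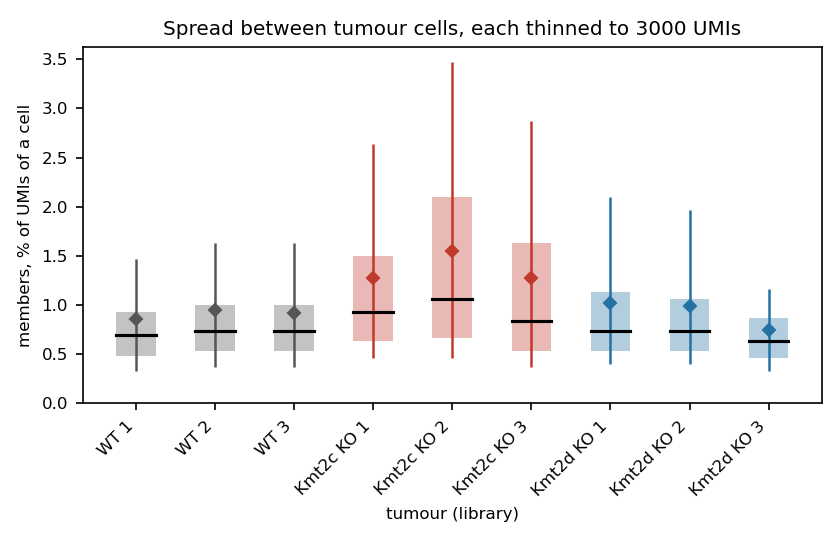
Share of a tumour cell's UMIs that came from the 35 members, in percent, after thinning each cell to 3000 UMIs, by library. Lines run from the 10th to the 90th percentile, boxes from the 25th to the 75th, bars mark the median and diamonds the mean, and the upper ends of the Kmt2c KO lines (2.63 to 3.47) lie above those of WT (1.47 to 1.63) while the lower ends are close.

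Within each tumour most members varied together between cells. For each member the cells of a library were ranked by the UMIs of the other 34 members. The member's level in the highest quartile was then divided by that in the lowest. For genes that are no members, the cells were ranked by the UMIs of all members. This is a description within libraries and carries no test. The 27 members with at least 3 UMIs in every low quartile had a median ratio of 3.65. It was 0.89 for 6976 other genes, which needed at least 3 UMIs in both the low and the high quartile of every library. A ratio of at least 1.5 was reached by 22 of the 27 and by 3.48% of the other genes. Bnip3 led with a median over libraries of 16.0 (5.66 to 38.2), followed by Ankrd37 (11.4, from 2.4 to 28.3), Ndrg1 (8.33), Pgk1 (8.11) and Slc2a1 (7.88). Summed over libraries, the sparser Car9 had 32 UMIs in the low quartiles and 1245 in the high ones, and Ero1l had 186 and 3588.

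Other glycolytic enzymes had lower ratios than these members. The ratio was 5.25 for Ldha, 4.44 for Pfkl, 3.82 for Tpi1, 3.79 for Aldoa, 3.58 for Eno1, 3.31 for Gapdh and 3.07 for Pkm. Further members outside glycolysis lay on both sides of these enzymes. Higd1a (6.68) was above them, and Adm (4.91), Mif (4.65) and Egln1 (3.65) were within their range. P4ha1 (2.60), Ddit4 (1.62), Plod2 (1.46) and Kdm3a (1.43) were below it. Tpi1, Gapdh and Pgam1 (4.21), which were not called between genotypes, had ratios within the range of the called enzymes. Hif1a (1.17), Hk1 (1.11) and Pfkm (0.82) were nearly level between the quartiles. The summed UMIs of Pfkfb4 ran from 88 in the low quartiles to 52 in the high. Among the further pathway genes, Fam162a (7.07), Bhlhe40 (5.20), Pgm1 (3.23) and Bnip3l (2.35) varied in the same direction as the members. Egln2 (0.73) and Arnt (0.63) were below 1, within the 5th to 95th percentile of the other genes (0.55 to 1.40). The high quartiles differed from the low ones in other respects too. In all 9 libraries they had a lower mitochondrial share, at 2.66 to 3.91 against 3.73 to 5.82 percent over the libraries, a higher share of ribosomal protein UMIs, at 17.9 to 19.9 against 12.9 to 16.4 percent, and more UMIs before thinning. The part of these in the ratios was not tested.

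**Figure D4:**
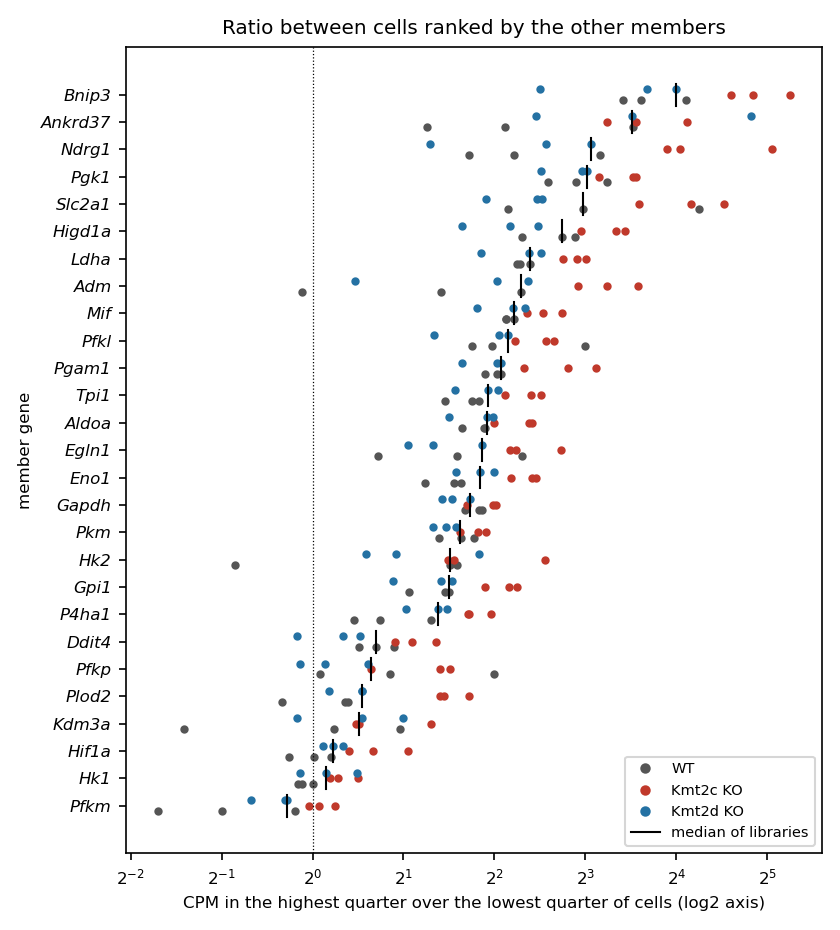
Ratio of each member's CPM between the highest and the lowest quartile of tumour cells, ranked within a library by the UMIs of the other members, on a log2 axis, with a point per library coloured by group and a bar at the median. Bnip3 is at the top with a median of 16.0, Pfkm at the bottom with 0.82, and the Kmt2c KO points of a gene mostly lie to the right of its WT points.

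The same genes were then read in host cells of the tumours, gated by 2 of 4 markers of a class that are no members (3 for fibroblasts), without any Krt8 or H2BMc UMI. The gates gave 653 macrophages, 425 endothelial cells, 287 lymphocytes, 408 fibroblasts and 109 mural cells. Libraries with at least 20 cells of a class entered the test, with the library as a block. These were all 9 for macrophages and endothelial cells, 7 for fibroblasts and 3 for lymphocytes (Kmt2c KO libraries 2 and 3 and Kmt2d KO library 1). Mural cells reached 20 in 1 library and were not tested. Before cells with Krt8 or H2BMc were removed, Krt8 was seen in 20.5% of macrophages, 13.7% of endothelial cells, 2.37% of lymphocytes and 68.4% of fibroblast-gated cells. For the fibroblast gate this condition left 408 of 1719 cells. Before it, Krt8 stood at 57.4% and H2BMc at 45.4% of its tumour cell level in that gate, the highest of the 5 gates, so the 408 cells may include tumour cells in which neither transcript was detected. H2BMc was seen in 36.9% of the 1719 cells, and these counted as tumour cells because fibroblast markers excluded none. Median depth was 2300 UMIs in macrophages, 1361 in lymphocytes, 4694 in endothelial cells and 6867.5 in fibroblasts, against 11693 in tumour cells.

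Many glycolytic enzymes were higher in tumour cells than in the host classes. Against macrophages 23 of 35 members were called higher and 6 lower in tumour cells, beside 29.4% and 26.1% of all genes (55.6% in either direction). Against lymphocytes 19 were higher and 5 lower, beside 21.4% and 12.5% (33.9% in all), but only 8 were called without Kmt2c KO library 2. Against endothelial cells 18 were higher and 10 lower, beside 35.2% and 27.2% (62.4% in all). Against fibroblasts 17 of 33 were higher and 4 lower, beside 18.1% and 18.3% (36.4% in all). Pgk1 stood at 625 CPM in the pooled tumour cells against 247 in macrophages, 399.7 in lymphocytes and 262 in endothelial cells, and Mif at 1891 against 695, 866 and 391. Both were called higher in tumour cells than in all 4 classes, as were Slc2a1, Gpi1, Aldoa, Tpi1, Pgam1, Eno1, Pkm, Ero1l, Bnip3, Car9 and Higd1a.

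Some members were higher in host cells. Slc16a3 had 42.3 CPM in macrophages, 56.2 in lymphocytes and 37.2 in endothelial cells, against 0.139 in tumour cells. Pfkfb3 had 82.6, 58.3 and 96.6 CPM in the same classes, against 0.844 in tumour cells. Both were called lower in tumour cells than in these 3 classes, at adjusted p values between 3.37e-23 and 3.05e-13. Pfkp was also lower in tumour cells, by 1.61, 1.41 and 1.76 on the log2 scale against macrophages, lymphocytes and endothelial cells. Over libraries, Hif1a ran from 382 to 1149 CPM in lymphocytes, from 144 to 272 in endothelial cells, from 70.03 to 194 in macrophages, from 65.6 to 156 in fibroblasts and from 64.3 to 244 in mural cells, with few UMIs in the smaller samples, against 87.4 to 104 in tumour cells. It was called lower in tumour cells than in lymphocytes, endothelial cells and macrophages, was not called against fibroblasts, and was not tested against mural cells.

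Against endothelial cells, members called higher and lower in tumour cells were both found among the hypoxia-induced genes, and the 10 of 35 called lower are close to the 27.2% of all genes. Adm (214 CPM against 57.8 in tumour cells), Ankrd37 (86.8 against 18.7), Pdk1 (30.1 against 9.01) and P4ha2 (20.3 against 5.95) were higher in endothelial cells, and so were Ndrg1 and Hk1 by 0.57 and 0.41 on the log2 scale. The other way, Bnip3 was 22.2 CPM in endothelial cells against 186 in tumour cells, and Car9, Plod2, Mif, Ero1l and Higd1a were higher in tumour cells by 2.24, 2.23, 2.09, 0.94 and 0.61 on the log2 scale. Hk2 and Pfkfb4 had 0 UMIs among 425 endothelial cells. Against a floor of 3 UMIs over the class, Hk2 was at least 11.98-fold and Pfkfb4 at least 4.25-fold higher in the pooled tumour cells, with counting error only. In macrophages, by contrast, Hk2 (28.0 CPM) and Pfkfb4 (42.3) were above their level in tumour cells (13.5 and 4.797).

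**Figure D5:**
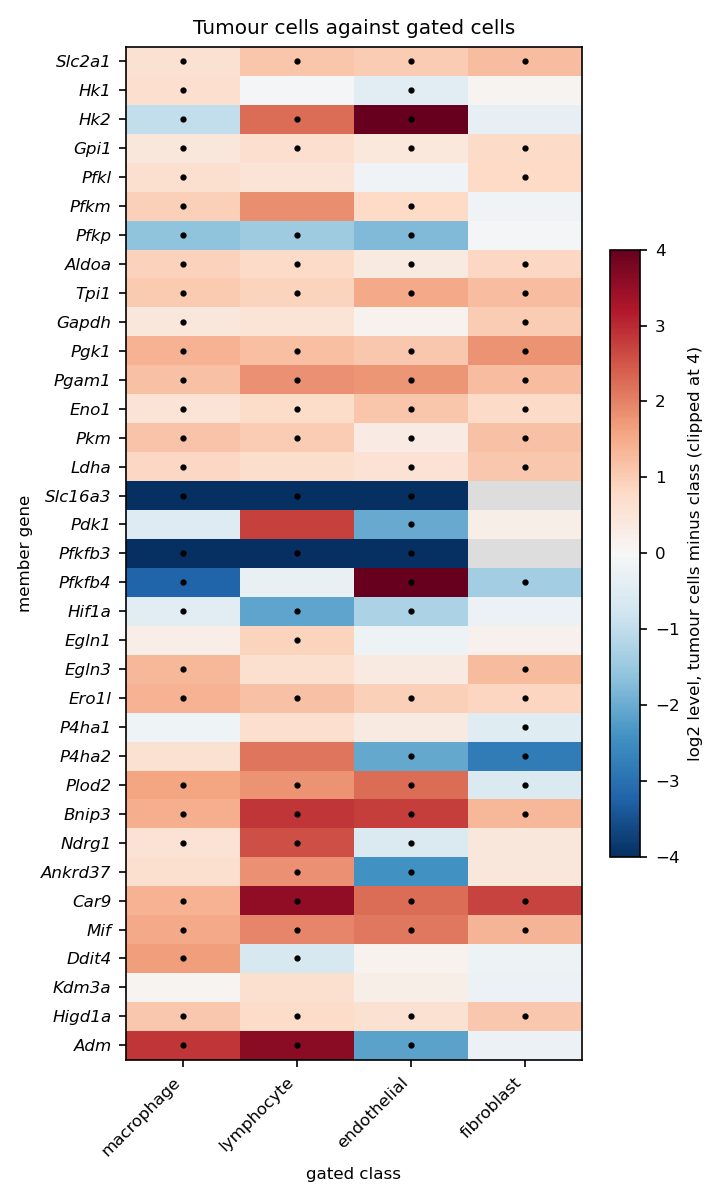
Log2 difference between tumour cells and each gated class, fitted with the library as a block, for the 35 members in rows and 4 classes in columns. Red is higher in tumour cells, blue lower, dots mark an adjusted p below 0.05, grey was not tested, colours are clipped at 4, and the blue cells of Slc16a3, Pfkfb3 and Pfkp contrast with the red rows of Pgk1, Pgam1 and Mif (the dark red cells of endothelial Hk2 and Pfkfb4 rest on 0 UMIs in the class).

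Between genotypes, the UMIs of some members in droplets gated as host cells differed. Tumour transcripts reached these gates: before cells with Krt8 or H2BMc were removed, Krt8 stood at 46.7% and H2BMc at 27.3% of its tumour cell level in the macrophage gate, and at 23.7% and 11.3% in the endothelial gate. Their part in the values that follow was not tested. In endothelial cells 5 of 26 tested members were called higher in Kmt2c KO than in WT tumours and 0 lower, beside 5.56% of all genes called. Pfkfb3 stood at 229, 181 and 288 CPM in Kmt2c KO, 48.9, 278 and 58.3 in Kmt2d KO and 27.6, 29.9 and 25.5 in WT libraries (log2 fold change 3.07 ± 0.52 SE, adjusted p = 0.00294). Slc16a3 stood at 62.9, 101 and 153 CPM in Kmt2c KO, 34.96, 18.5 and 13.9 in Kmt2d KO and 11.1, 27.4 and 12.7 in WT (log2 fold change 2.63 ± 0.43 SE, adjusted p = 0.00264), from 4 to 25 UMIs per library. For both genes each Kmt2c KO library exceeded each WT library. Mif, Pfkl and Pkm were the other 3 (1.31 ± 0.27, adjusted p = 0.00897, 1.05 ± 0.25, adjusted p = 0.0240 and 0.68 ± 0.18, adjusted p = 0.0319). These 3 were also called higher in Kmt2c KO tumour cells, whereas Pfkfb3 and Slc16a3 were at 0.844 and 0.139 CPM in tumour cells. The count fell to 2 without WT library 1 or 2, to 3 without WT library 3 or Kmt2c KO library 2 or 3, and rose to 8, 9 and 12 without Kmt2d KO library 1, Kmt2c KO library 1 and Kmt2d KO library 2. How many of all genes were called in these alternatives was not counted.

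In macrophages 5 of 23 tested members were called higher in Kmt2c KO and 0 lower, beside 4.99% of all genes called: Slc2a1 (2.01 ± 0.48, adjusted p = 0.0299), Pfkfb3 (1.65 ± 0.42, adjusted p = 0.0336), Mif (1.18 ± 0.29, adjusted p = 0.0327), Hif1a (1.08 ± 0.28, adjusted p = 0.0350) and Pkm (0.94 ± 0.23, adjusted p = 0.0301). Slc2a1 had 41.6, 183 and 137 CPM in Kmt2c KO and 16.5, 52.2 and 30.01 in WT macrophages, so that Kmt2c KO library 1 lay within the WT range. Hif1a had 153, 173 and 194 and 107, 82.1 and 70.03 CPM, without overlap. Slc2a1, Mif and Pkm were also called higher in Kmt2c KO tumour cells, and Hif1a and Pfkfb3 were not called there. The count was 0 with the stricter gate and without Kmt2c KO library 2 or 3 or WT library 1 or 3, and 1 without Kmt2c KO library 1. In Kmt2d KO 0 members were called in either class (0.0744% of all genes in endothelial cells and 0 of 4147 in macrophages). The unadjusted p was below 0.05 for 6 of 26 members and 509 of 5375 genes in endothelial cells. It was so for 7 of 23 members and 376 of 4147 genes in macrophages. In macrophages every tested member had a log2 fold change above 0 in both knockouts. These ran from 0.03 (Pgam1) to 2.01 (Slc2a1) in Kmt2c KO and from 0.09 (Pfkp) to 1.54 (Ddit4) in Kmt2d KO. The medians over all genes were −0.01 and 0.01. In endothelial cells of Kmt2d KO the members ran from −0.75 (Ddit4) to 2.10 (Pfkfb3).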

How the data were processed

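Single-cell suspensions of 9 tumours were sequenced with the 10x Chromium 5′ kit, and the submitters' notes name Cell Ranger 7.0.1 and the mm10 build. The deposited matrix held raw UMI counts per gene and barcode of all libraries together, 89147 barcodes and 585680611 UMIs, as whole numbers. The sources do not say if the authors' aggregation step evened depth between libraries. A suffix on each barcode gave the library, and the authors' aggregation table gave each library a letter, C, D or X, that matches no sample title. C was taken as Kmt2c KO, D as Kmt2d KO and X as WT, since the titles of the study's comparison tables set C and D against X. No label states this. The table gives no replicate number of the labels, so library numbers here only name the libraries.

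Cells with 500 to 7500 genes and under 15% mitochondrial UMIs were kept (58645). No doublet caller was run. Cells with H2BMc and at least 2 markers of the macrophage, lymphocyte, endothelial or mural class, 135 in all, were removed. UMIs were summed per library over tumour cells (9667321 to 47568159 UMIs) or gated cells, scaled to CPM, and tested with edgeR 4.0.16 (quasi-likelihood test, TMM scaling, filterByExpr, all 9 libraries in 1 fit), with Benjamini-Hochberg adjustment over all genes tested. DESeq2 1.42.0 was an alternative. The labels call the tumours separate samples of a group, but all tumours of a group came from 1 line, so p-values measure the spread between tumours of that line. Intervals are 2 SE, and the floor of 3 UMIs covers counting error only. Means over members are of log2(CPM + 1). Values are per gene and not per length.

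Gates needed 2 of Csf1r, C1qa, C1qb and Adgre1 (macrophages), of Cd3e, Cd3d, Cd3g and Nkg7 (lymphocytes), of Pecam1, Cdh5, Egfl7 and Cldn5 (endothelial cells) or of Rgs5, Notch3, Higd1b and Cspg4 (mural cells), and 3 of Pdgfra, Dcn, Lum and Col1a1 (fibroblasts). All 35 members are named with values or counts. The members, lists and tests were chosen with earlier results of these data known. Alternatives are given in the closing section, of which thinning to 3000 UMIs per cell before the tests was chosen after seeing the data.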

Additional observations from a re-analysis of the deposited data

Results flagged for a closer look

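Cells outside every gate entered no comparison but held transcripts of the 35 genes. In the 40191 kept cells of no gate the members made up 0.808% of all UMIs, from 0.693% to 0.961% between libraries. These cells have no label, and many held Krt8. A second row of the table carries the symbol Aldoa. It had 1056 UMIs in tumour cells, against 314445 for the row used, and was left out.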

How the results depend on the processing

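No paired analysis was possible because the deposited files give each library a letter, read as its genotype, but no replicate number of the labels. The 24 members called in Kmt2c KO against WT were 14 to 28 when 1 library was left out, 16 with tumour cells taken by Krt8 and 17 with thinned cells, among 1288 to 4164 and (thinned) 1064 genes in place of 2673. In Kmt2d KO against WT, Eno1 alone was called without the low-count filter or by DESeq2, which gave 1 member each. The 326 genes of that comparison became 103 to 831 on leaving out 1 library, 550 without the filter (61.1% of them higher, against 45.4%), 182 with only the compared groups, 196 in non-cycling cells, 68 in thinned cells and 686 by DESeq2. Between the knockouts the members called were 0 to 26 on leaving out 1 library, 22 without the filter, 12 with at least 2 H2BMc UMIs, 4 in thinned cells and 18 by DESeq2, and the genes were 0 to 2808, 613, 192, 44 and 584, with 13 in cells with H2BMc and Krt8, 5 without the mitochondrial limit and 40 in non-cycling cells. The 24 calls between tumour cells and lymphocytes were 14 with the stricter gate and 8 to 19 on leaving out 1 library. In macrophages the 5 calls of Kmt2c KO became 0 with the stricter gate and 0 to 7 on leaving out 1 library. In endothelial cells they were 2 to 12, and 0 to 1 for Kmt2d KO. In the alternatives of the host classes only members were counted, so no share of all genes stands beside these counts. The mean difference of 0.73 was 0.46 by Krt8, and the WT spread of 4.43 was 3.81 at 6000 UMIs. The causes were not tested. No called value changed sign. Of single members, 594 values kept their side of the threshold in Kmt2c KO against WT, 58 lost it and 27 gained it.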
